A study of Mus musculus with 3 samples.

Results

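The 1564 peaks described here are the TBX5 binding sites of the fetal mouse heart that lay at active promoters and overlapped no TBX3 region. They were taken from a deposited table of 12436 TBX5 peaks as the rows whose chromatin class was active promoter and whose TBX3 overlap was no. TBX5 binding had been mapped by chromatin immunoprecipitation and sequencing (ChIP-seq), in which DNA fixed to a protein is pulled down with an antibody and read. Whole hearts came from embryos of CD-1, an outbred mouse stock, at stage E14.5. The samples were 2 biological replicates pulled down with anti-TBX5 and 1 input, which is chromatin of the same kind of hearts taken without pull-down. No genetic change or treatment is given for any of them.

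T-box factors bind DNA through a shared domain that prefers a short core, read as AGGTGT on one strand and ACACCT on the other. TBX5 is required for formation of the cardiac chambers and septa, and TBX3, a relative that mostly acts as a repressor, is best known in the heart from the pacemaking and conducting tissue. At promoters in use, nucleosomes beside the start typically carry H3K4me3, H3K9ac and H3K27ac, while H3K4me1 is more typical of enhancers and of the flanks of promoters.

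The authors' promoter class reached 2000 bp to either side of a start. Of 3055 promoter peaks, the 2905 that overlapped regions of H3K4me3, H3K27ac or H3K9ac and none of H3K27me3 or H3K9me3 were exactly the active promoter peaks. These 3 active marks and the absence of the 2 repressive ones thus belong to the definition and are given only as description. The overlap with TBX3 regions then set 1564 peaks without such a region apart from 1341 TBX3-shared promoter peaks. The hearts' tissue label was set beside markers of cell types. Of 6 cardiomyocyte markers all 6 (Tnnt2, Myh6, Myh7, Actc1, Nppa and Ttn) had a promoter peak without a TBX3 region, against 0 of 6 endothelial, 1 of 7 epicardial and fibroblast (Tbx18), 1 of 5 smooth muscle (Myocd) and 0 of 5 blood markers. The share of all protein-coding genes was 5.18%, so 0 or 1 in lists this short does not set those cell types apart. In the longer lists below, 12 of 36 sarcomere, 3 of 14 smooth muscle and 3 of 21 epicardial and fibroblast genes had a peak without a TBX3 region. Those lists were chosen with earlier results of these data known, so the counts are no test of the label. Among the cardiomyocyte markers Tnnt2, Actc1 and Ttn also had a TBX3-shared peak. In bulk hearts, binding in fewer cells and weaker binding per cell cannot be told apart.

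To show what letters lay under these summits, the 250 bases before the start are printed for bound promoters with and without the T-box core. They were chosen by rule as the highest-fold peaks whose summit fell in the RefSeq promoter window, which runs from 250 bases before to 50 after a start. Sequences are from RefSeq, assembly GRCm38.p6 (the assembly called mm10 in browsers), 5′ to 3′ on the strand of the gene. Capitals mark the core, which in each case stood as ACACCT on the printed strand. Fitm1 (chr14:55575424-55575673, plus strand), Akt2 (chr7:27605547-27605796, plus strand) and Pcnp (chr16:56029718-56029967, minus strand) held it before the start. In Sh3kbp1 it stood after the start, so only the 20 bases around it are shown (chrX:159942711-159942730, plus strand).
Sh3kbp1: caacttgACACCTtgtgcct
Fitm1: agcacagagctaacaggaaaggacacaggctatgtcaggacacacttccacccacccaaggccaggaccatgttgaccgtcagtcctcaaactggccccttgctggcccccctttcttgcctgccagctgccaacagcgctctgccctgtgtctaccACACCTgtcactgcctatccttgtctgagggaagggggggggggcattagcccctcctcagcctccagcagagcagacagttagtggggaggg
Akt2: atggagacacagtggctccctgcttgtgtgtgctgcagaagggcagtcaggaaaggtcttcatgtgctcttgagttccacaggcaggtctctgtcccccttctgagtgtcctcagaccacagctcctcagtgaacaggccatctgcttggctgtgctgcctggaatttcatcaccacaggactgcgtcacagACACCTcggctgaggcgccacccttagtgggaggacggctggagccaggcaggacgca
Pcnp: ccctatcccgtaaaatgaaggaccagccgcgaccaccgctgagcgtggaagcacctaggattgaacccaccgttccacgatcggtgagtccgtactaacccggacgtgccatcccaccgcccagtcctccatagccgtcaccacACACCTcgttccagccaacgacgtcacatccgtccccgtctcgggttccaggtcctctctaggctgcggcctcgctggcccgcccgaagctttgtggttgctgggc

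The strongest promoters whose window held the summit and no core were Twistnb (chr12:33429374-33429623, plus strand), Tnnt2 (chr1:135836084-135836333, plus strand) and Ephb4 (chr5:137349859-137350108, plus strand). They carry no capitals.
Twistnb: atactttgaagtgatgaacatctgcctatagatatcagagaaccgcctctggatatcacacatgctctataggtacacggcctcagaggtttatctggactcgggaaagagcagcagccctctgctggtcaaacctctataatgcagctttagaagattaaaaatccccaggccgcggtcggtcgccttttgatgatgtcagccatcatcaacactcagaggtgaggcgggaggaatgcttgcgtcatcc
Tnnt2: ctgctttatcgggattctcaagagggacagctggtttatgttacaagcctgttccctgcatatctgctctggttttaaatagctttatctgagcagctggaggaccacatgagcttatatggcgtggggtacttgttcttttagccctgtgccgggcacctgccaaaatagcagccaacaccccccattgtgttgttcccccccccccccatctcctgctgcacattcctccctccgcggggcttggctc
Ephb4: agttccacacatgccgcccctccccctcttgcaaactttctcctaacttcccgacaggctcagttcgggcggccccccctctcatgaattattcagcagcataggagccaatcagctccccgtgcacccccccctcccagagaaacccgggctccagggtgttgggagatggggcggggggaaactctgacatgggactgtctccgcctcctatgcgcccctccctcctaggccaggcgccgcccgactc

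Positions of core and summit were counted from the RefSeq start. In Fitm1, a gene of lipid droplet formation, the core spanned positions -93 to -88 from the start and the summit lay at -77. In Akt2, a kinase of insulin signalling, the core spanned -58 to -53 and the summit lay at -70. In Pcnp, a nuclear protein gene, the core spanned -106 to -101 and the summit lay at -124, and in Sh3kbp1, an adaptor protein gene, the core spanned 25 to 30 and the summit lay at 36. The fold enrichment of these peaks was 20.1 (16.2 to 24.6) at Fitm1, 15.9 (12.2 to 20.4) at Akt2, 13.8 (11.2 to 16.9) at Pcnp and 32.9 (26.8 to 40.1) at Sh3kbp1. The promoters without a core reached similar folds, with 22.3 (18.5 to 26.8) at Twistnb, an RNA polymerase I subunit gene, 16.7 (13.5 to 20.5) at Tnnt2, cardiac troponin T, and 16.5 (13.5 to 19.9) at Ephb4, an ephrin receptor gene.

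Fold enrichment is the value the authors deposited for each peak of their 1 pooled list, the pooled fragments at the summit over the local background. The bracketed range is the exact 95% Poisson interval of the summit pileup, the number of fragments over the summit, with the background held fixed. It covers counting error only. Since both replicates were pooled before peaks were called, no spread between replicates could be computed for any value, and no peak set was tested against another.

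Binding at these promoters was mostly of moderate strength, over a high local background. The median fold was 4.41 (95% interval of the median 4.36 to 4.49, quartiles 3.69 and 5.51), against 4.35 (4.21 to 4.39) at TBX3-shared promoter peaks and 5.67 at all peaks. At active peaks away from promoters without a TBX3 region (n = 4488) it was 6.27, and at the 150 promoter peaks of other chromatin classes 5.28. The summit pileup did not follow that order. Its median was 22 fragments at promoter peaks without a TBX3 region, 24 at TBX3-shared ones, 22 at active non-promoter peaks, 20 at promoter peaks of other classes and 22 at all peaks. The background was highest at both kinds of active promoter peak, with medians of 4.24 at those without a TBX3 region and 4.94 at TBX3-shared ones, against 2.72 at active non-promoter peaks, 2.72 at promoter peaks of other classes and 2.83 at all peaks. Among the 1564 peaks the fold followed the background (Spearman's rho -0.57) and the pileup (rho 0.42), both of which enter the fold. These are correlations across peaks, which share libraries and neighbourhoods.

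**Figure D1:**
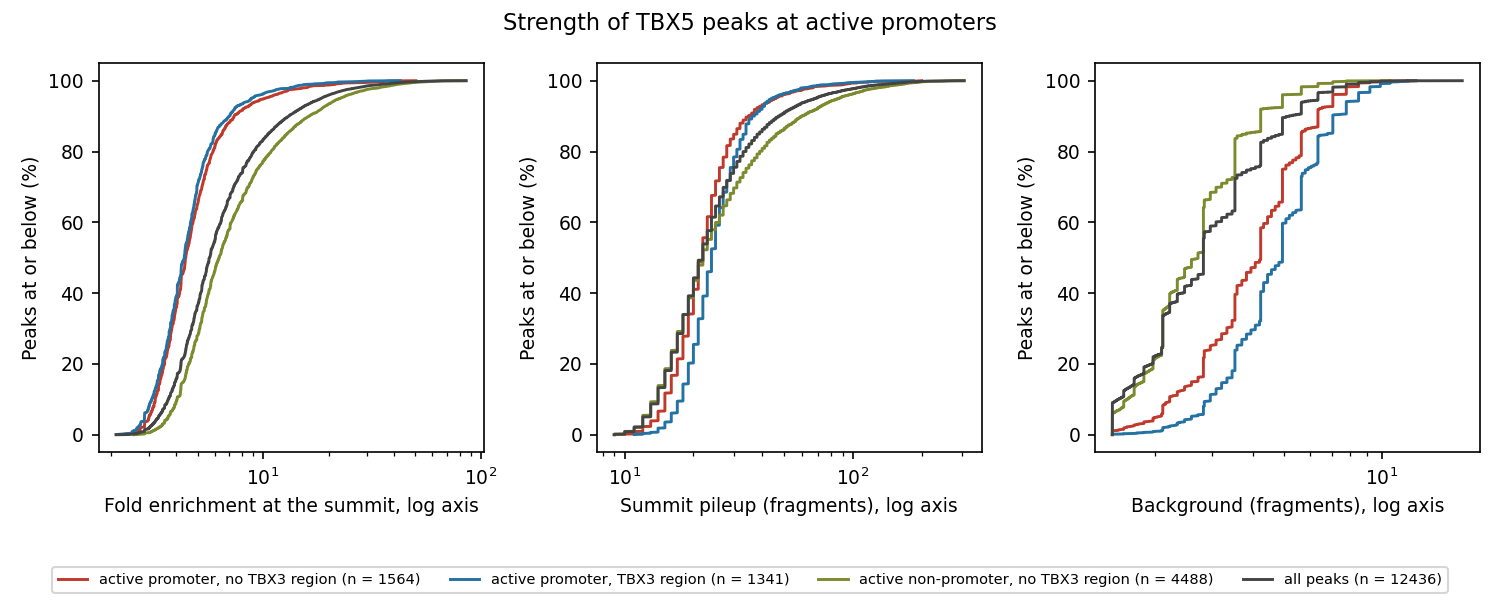
Cumulative share of peaks (%) against fold enrichment, summit pileup and background (fragments), each on a log axis. Curves stand for active promoter peaks without a TBX3 region (n = 1564), TBX3-shared ones (n = 1341), active non-promoter peaks without a TBX3 region (n = 4488) and all 12436 peaks. Both promoter curves lie to the left for fold (medians 4.41 and 4.35, against 5.67 for all peaks) and to the right for background (4.24 and 4.94, against 2.83).

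Few of these peaks were strong. A −log10 q of at least 10 was reached by 353 of them (22.6%, exact 95% interval 20.5 to 24.7), against 24.0% of TBX3-shared promoter peaks and 41.5% of all peaks. At least 10-fold enrichment was seen at 81 (5.18%, 4.13 to 6.40), against 3.73% of TBX3-shared promoter peaks and 16.7% of all peaks. At least 20-fold enrichment was seen at 20 (1.28%), against 0.597% of TBX3-shared promoter peaks and 4.07% of all peaks. The intervals of these shares overlap between both kinds of promoter peak. Peaks were narrow, with a median width of 238 bp (quartiles 197 and 310, highest 1078) against 263 bp at TBX3-shared promoter peaks and 251 bp at all peaks. A width of at least 500 bp was found at 50 peaks (3.20%), against 6.26% of TBX3-shared promoter peaks.

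Summits gathered around the start on both sides. The median distance was 181.5 bp (quartiles 66 and 653), against 123 bp at TBX3-shared promoter peaks. Within 100 bp lay 541 summits (34.6%, 32.2 to 37.0), against 43.6% (40.9 to 46.3) of TBX3-shared ones, and within 500 bp 70.5%, against 81.5%. At 1001 to 2000 bp lay 247 summits (15.8%, 14.0 to 17.7), against 8.65% (7.20 to 10.3) of TBX3-shared ones. The intervals, which take peaks as independent, do not overlap within 100 bp or beyond 1000 bp, and no test was made. Upstream of the start lay 819 summits (52.4%), against 54.7% of TBX3-shared ones. The outermost peak inside the class was at Mcm2, a subunit of the replicative helicase, exactly 2000 bp from the start with 7.96-fold enrichment (5.17 to 11.8). The nearest active peak without a TBX3 region beyond the limit lay at chr12:86724381-86724575, 2013 bp from a start, with 6.15-fold enrichment (3.72 to 9.64).

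**Figure D2:**
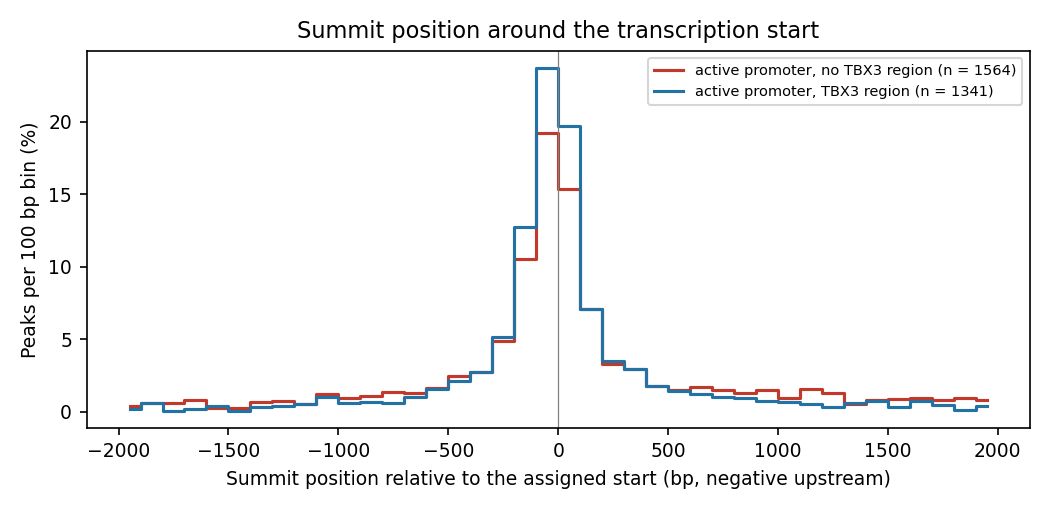
Share of summits (%) per 100 bp bin by position relative to the assigned start (bp, negative upstream), for active promoter peaks without a TBX3 region (n = 1564) and TBX3-shared ones (n = 1341). Both peak at the start, where 34.6% and 43.6% of summits lie within 100 bp, and the line of peaks without a TBX3 region is higher far from it.

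The marks differed along this distance. H3K4me3 regions covered 1428 peaks (91.3%), against 95.9% of TBX3-shared promoter peaks and 31.8% of all peaks. H3K27ac regions covered 1512 (96.7%), against 98.6% and 73.5%, and H3K9ac regions 1468 (93.9%), against 98.1% and 46%. All 3 marks together were found at 1364 peaks (87.2%), against 94.5% of TBX3-shared promoter peaks. H3K4me1, which the class did not use, covered 649 peaks (41.5%, 39.0 to 44.0), against 34.5% (31.9 to 37.1) of TBX3-shared promoter peaks and 72.3% of all peaks. From the start outward, H3K4me1 covered 27.9% of peaks at 0 to 100 bp, 34.5% at 101 to 250 bp, 36.0% at 251 to 500 bp, 54.9% at 501 to 1000 bp and 74.1% at 1001 to 2000 bp. H3K4me3 took the opposite course, with 97.97% at 0 to 100 bp and 70.0% at 1001 to 2000 bp. Within the 0 to 100 bp bin the H3K4me1 share was 27.9% (24.2 to 31.9), against 28.5% (24.9 to 32.4) of TBX3-shared promoter peaks. At 1001 to 2000 bp it was 74.1% (68.2 to 79.4), against 62.9% (53.5 to 71.7), so that the intervals overlapped in both bins.

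Peaks of higher fold lay farther out and carried H3K4me1 more often. The median fold was 4.18 at 0 to 100 bp and 5.16 at 1001 to 2000 bp, over backgrounds of 4.45 and 3.21 fragments and the same pileup of 22. Peaks with H3K4me1 had a median fold of 4.96 (4.80 to 5.08, n = 649), against 4.18 (4.10 to 4.21, n = 915) at those without it. Their median pileup was 22 in both cases, over median backgrounds of 3.53 and 4.45. Peaks without H3K4me3 (n = 136) had a median fold of 5.69 and a median distance of 1153.5 bp, and peaks with it 4.36 and 164 bp. Here the median pileups were 21.5 and 22, over backgrounds of 2.83 and 4.24. When the 1564 peaks were put into 5 equal groups by fold, H3K4me1 covered 28.4%, 30.7%, 34.6%, 48.6% and 65.2% from the weakest to the strongest. Summits over 1000 bp from the start made up 6.39%, 10.5%, 12.8%, 20.8% and 28.4% of these groups, and H3K4me3 covered 97.4%, 95.8%, 94.6%, 88.5% and 80.2%. The median background was 5.65, 4.45, 3.96, 3.53 and 2.84 fragments along the same order, and the median pileup 20, 20, 21, 22 and 32. The part of the background in these trends was not tested.

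**Figure D3:**
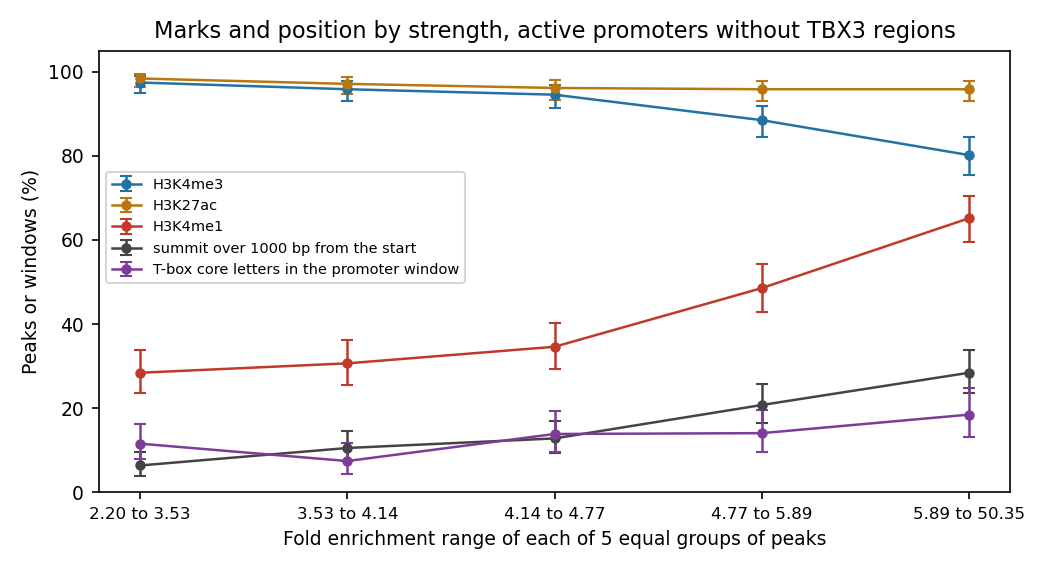
Share (%) of peaks with H3K4me3, H3K27ac or H3K4me1 regions, of summits over 1000 bp from the start and of promoter windows with the core AGGTGT, in 5 equal groups of promoter peaks without a TBX3 region by fold enrichment. Bars are exact 95% intervals. H3K4me1 covered 28.4% of the weakest and 65.2% of the strongest group, and H3K4me3 97.4% and 80.2%.

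The core was searched as AGGTGT on both strands, and 2 longer runs were searched too: GGTGTGA, which shares all but the first letter of the core, and AGGTGTGA, which contains both. Of 1004 different promoter windows at these starts 132 held AGGTGT (13.1%, 11.1 to 15.4), against 14.6% of windows at TBX3-shared peaks and 13.7% of all 32851 windows of the table. The share over these windows is thus near that of all windows, though only 458 of the 1004 held the summit. GGTGTGA was in 4.68% of windows at peaks without a TBX3 region, against 4.35% at TBX3-shared peaks and 3.98% of all windows, and AGGTGTGA in 1.49%, against 1.74% and 1.28%. In the 458 windows that held the summit itself, AGGTGT was found in 76 (16.6%, 13.3 to 20.3). That interval holds the 13.7% of all windows, which were counted with or without a summit. From the weakest to the strongest of the 5 fold groups, windows with the summit held the core in 13.8%, 10.1%, 18.4%, 18.1% and 26.0%. Each group has at most 116 windows, and the intervals of the weakest (8.09 to 21.4) and strongest (16.5 to 37.6) overlap. The median fold was 4.73 (4.29 to 4.90) at the 76 windows with the core, against 4.17 (3.99 to 4.35) at the 382 without it, with overlapping intervals. From core to summit the median gap was 39.5 bp, in windows of 300 bp chosen to hold both, which by itself keeps the gap short.

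Other promoter letters were searched in the same way. Windows at peaks without a TBX3 region held GGGCGG, the GC box of Sp factors, in 68.2%, against 73.6% at TBX3-shared peaks and 35.7% of all windows. CCGGAAG, read by ETS factors, was in 17.2%, against 16.0% and 8.86%, and CGCATGCG, read by NRF1, in 3.29%, against 3.37% and 1.87%. AAGATGGC, read by YY1, was in 4.08%, against 4.79% and 2.75%. TGACGTCA, the cyclic AMP response element, was in 4.78% (3.55 to 6.29), against 2.72% (1.77 to 3.99) and 1.79%. CCAAT, read by NF-Y, was in 37.5%, against 36.1% and 37.4%. TATAAA was in 7.27%, against 5.11% and 13.6%, AGATAA, read by GATA factors, in 6.87%, against 5.33% and 11.2%, and GGAATG, read by TEAD factors, in 13.4%, against 10.4% and 14.7%. The median GC content of the windows was 62.0%, against 65.3% at TBX3-shared peaks and 52.7% in all windows. The median ratio of observed to expected CpG was 0.805, against 0.855 and 0.384. All windows include those of noncoding genes. Among protein-coding windows alone, GGGCGG was in 69.1% at peaks without a TBX3 region, against 46.2% of all such windows. CCGGAAG was in 17.6%, against 11.6%, and the median CpG ratio was 0.808, against 0.567. CGCATGCG was in 3.26% (2.23 to 4.60), against 2.52% (2.31 to 2.74). AAGATGGC was in 4.11% (2.94 to 5.57), against 3.05% (2.83 to 3.29). The intervals overlap for both of these runs. In the 458 windows that held the summit, TGACGTCA was found in 7.64% (5.38 to 10.5) and CCGGAAG in 22.7% (18.9 to 26.8). The part of base content in these shares was not tested, and a match of letters describes the sequence and does not show a bound site.

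The genes at these starts were found by adding the deposited distance to the summit and looking for a RefSeq start within 100 bp. That gave a start for 1288 peaks (82.4%), of which 1066 agreed to the base. Protein-coding genes accounted for 1200 of them and long noncoding RNAs for 70. The 1200 peaks belonged to 1120 genes, or 5.18% of the 21627 protein-coding genes on the chromosomes with peaks. TBX3-shared promoter peaks marked 1031 genes (4.77%). Both kinds of peak stood at 114 genes, which is 10.2% of the genes with a peak without a TBX3 region and 11.1% of those with a TBX3-shared one. Of the 2037 genes with either, 55% had a peak without a TBX3 region. A start with a divergent protein-coding start within 1000 bp, where a peak cannot be given to one gene, accounted for 114 of the 1005 peaks at a protein-coding start of the promoter table (11.3%, 9.45 to 13.5), against 12.2% of TBX3-shared peaks and 9.51% of all protein-coding starts.

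The strongest peaks with a gene at the start were not those of the contractile apparatus. Prrx2, a homeobox factor of mesenchyme, had 37.6-fold enrichment (31.4 to 44.8) from 125 fragments, 1606 bp downstream of its start at chr2:30846604-30847196. Ccn2, which encodes the secreted connective tissue growth factor, had 35.7-fold enrichment (30.8 to 41.2) from 186 fragments, 1693 bp upstream at chr10:24593537-24593963. Kcnh2, the potassium channel of the rapid delayed rectifier current, had 33.8-fold enrichment (29.3 to 38.8) from 200 fragments at chr5:24352304-24353005. Sh3kbp1 had 97 fragments over a background of 1.98, with its summit 36 bp from the start at chrX:159942557-159942930.

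Long noncoding RNAs, at the starts of 4.48% of all 1564 peaks, gave 5 of the 15 strongest with a gene. These were 2010310C07Rik (37.5-fold, 31.1 to 44.9), Gm4489 (35.9-fold, 29.6 to 43.2), 4933436E23Rik (30.8-fold, 24.8 to 37.9), 1810021B22Rik (27.3-fold, 22.4 to 33.0) and 9430078K24Rik (24.0-fold, 18.9 to 30.1). Among protein-coding genes followed 4921504E06Rik (29.2-fold), Gm19668 (23.1-fold), Dnah6 (22.99-fold), an axonemal dynein, Twistnb (22.3-fold), Tfpi (21.5-fold), the inhibitor of the tissue factor pathway of clotting, and Fitm1 (20.1-fold). Of these 15 peaks 8 lay over 1000 bp from the start, 12 carried H3K4me1, 10 carried H3K4me3 and all 15 carried H3K27ac. Of the 81 peaks with at least 10-fold enrichment 30 lay over 1000 bp away (37.0%) and 62 carried H3K4me1 (76.5%). Among all 1564 peaks 15.8% lay over 1000 bp away, 41.5% carried H3K4me1, 91.3% H3K4me3 and 96.7% H3K27ac. At the other end of the range were Patz1, a zinc finger factor (2.39-fold, 1.51 to 3.64), Washc1, of the endosomal WASH complex (2.39-fold, 1.51 to 3.64), and Usp34, a deubiquitinase (2.30-fold, 1.50 to 3.37). Their pileups of 20, 20 and 24 fragments stood over backgrounds of 7.77, 7.77 and 9.89.

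Sarcomere genes had the highest share of starts with a peak without a TBX3 region among the gene lists examined, while calcium handling genes led for starts with either kind of peak (13 of 26, 50.0%, against 17 of 36, 47.2%, of sarcomere genes). A promoter peak without a TBX3 region stood at 12 of 36 (33.3%, 18.6 to 51.0), against 5.18% of all protein-coding genes, and a TBX3-shared one at 8 of 36. The class takes only promoters with an active mark, and the 5.18% also counts genes without one. Taking the highest fold of each gene, the median of the sarcomere genes was 5.59, against 4.36 (4.21 to 4.43) for all 1120 genes with a peak without a TBX3 region. Tnnt2 had the strongest, with 90 fragments over a background of 4.45 at a summit 87 bp upstream of the start (chr1:135835961-135836419). Synpo2l, a Z-disc protein gene, followed with 10.6-fold enrichment (7.76 to 14.2) 85 bp upstream at chr14:20664486-20664845. Tnni1, the slow skeletal troponin I that the fetal heart uses, had 6.92-fold enrichment (5.09 to 9.20) 1221 bp downstream. The genes of both cardiac myosin heavy chains had nearly equal peaks, with 5.52-fold enrichment (3.61 to 8.10) 152 bp upstream of Myh6 and 5.51-fold (3.38 to 8.54) 154 bp upstream of Myh7. Titin (Ttn) had 5.96-fold enrichment (3.55 to 9.45), Tnnc1 5.38-fold, Actn2 5.67-fold, Csrp3 5.38-fold, Tnni3 4.88-fold and Mybpc3 4.01-fold. Their intervals overlap one another. Of the sarcomere genes Tnnt2, Actc1 and Ttn also had a TBX3-shared promoter peak.

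Calcium handling genes came next in share, with 7 of 26 (26.9%, 11.6 to 47.8), and 8 of 26 with a TBX3-shared peak. Cacna1c and Cacnb2 had both kinds of peak. Slc8a1, the sodium-calcium exchanger, had 11.9-fold enrichment (8.58 to 16.2) from 39 fragments, 108 bp upstream at chr17:81738375-81738684. Calm2, a calmodulin gene, had 9.40-fold enrichment (7.26 to 12.0) from 63 fragments, 7 bp from the start at chr17:87446697-87447155. Cacna1c, the pore of the L-type calcium channel, had 5.80-fold enrichment (3.73 to 8.65) at one start and 4.30-fold (2.53 to 6.92) at another. Trdn (5.54-fold), Jph2 (5.51-fold), Cacnb2 (4.85-fold) and Cacna2d1 (4.71-fold), of the junction with the sarcoplasmic reticulum and of the channel's side subunits, completed the group.

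Transcription factors of the heart had a lower median fold than the sarcomere genes, with overlapping ranges (3.20 to 6.01 against 4.01 to 16.7). Of 41 transcription factor genes 8 had a promoter peak without a TBX3 region (19.5%) and 8 a TBX3-shared one. The median of the highest fold of each gene was 4.03, against 4.36 for all 1120 genes. Both kinds of peak stood at Gata4, Mef2d, Foxp1 and Mef2a. Gata4 had 6.01-fold enrichment (3.87 to 8.97) 1287 bp upstream, over H3K4me1 without H3K4me3. Myocd, the coactivator of serum response factor, had 5.23-fold enrichment (3.25 to 8.02) 1438 bp downstream, and Mef2d 5.00-fold (3.18 to 7.52). Meis1 (4.39-fold), Foxp1 (3.67-fold), Hey1 (3.35-fold), Tbx18 (3.31-fold) and Mef2a (3.20-fold) had from 18 to 26 fragments each. Conduction and ion channel genes had 2 of 31 (6.45%), near the share of all genes, and 0 of 31 with a TBX3-shared peak. These 2 were Kcnh2 and Kcnk3, a two-pore potassium channel, with 6.50-fold enrichment (4.51 to 9.09) 221 bp upstream.

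**Figure D4:**
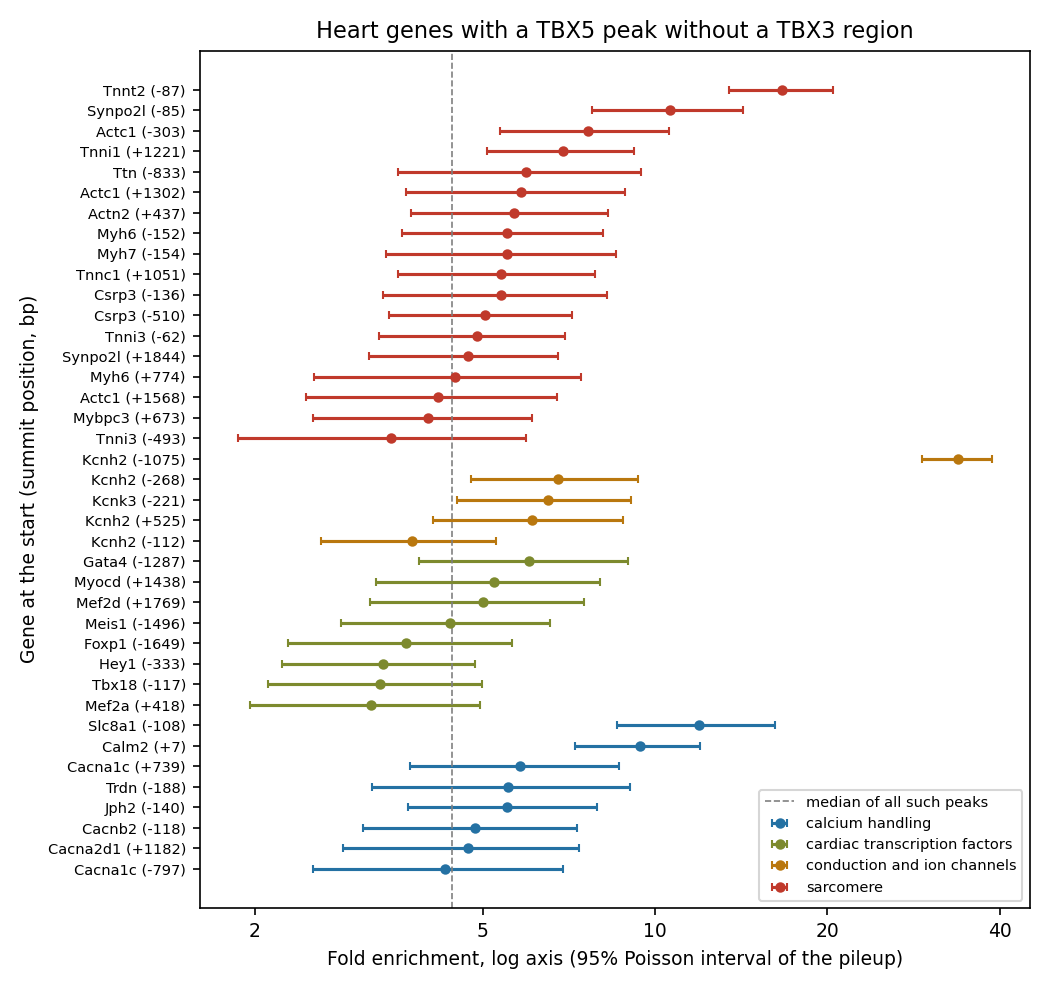
Fold enrichment (log axis) of each promoter peak without a TBX3 region at genes of the sarcomere, ion channels, cardiac transcription factors and calcium handling, with the summit position (bp) beside the gene. Bars are exact 95% Poisson intervals of the pileup, and the dashed line is the median of all 1564 such peaks, 4.41. Kcnh2 (33.8), Tnnt2 (16.7), Slc8a1 (11.9) and Synpo2l (10.6) stand above the rest.

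Several genes held more than one of these peaks. There were 66 genes with at least 2, and Kcnh2 had the most with 4. Beside the 33.8-fold peak, 1075 bp upstream of a start, it held peaks of 6.76-fold (4.76 to 9.33), 6.11-fold (4.10 to 8.79) and 3.76-fold (2.61 to 5.26), the first of these at a second start. Ccdc141, a coiled-coil protein gene beside Ttn, had 18.9-fold enrichment 1192 bp downstream, 6.64-fold 114 bp upstream and 5.11-fold 869 bp upstream. Mylk3, the cardiac myosin light chain kinase, had 11.0-fold enrichment (7.83 to 15.2) at one start and 7.24-fold and 4.88-fold at another. Actc1, cardiac alpha-actin, had 7.63-fold (5.35 to 10.6) 303 bp upstream and 5.84-fold and 4.18-fold downstream. Nmrk2, a muscle kinase of NAD synthesis, had 7.31-fold, 6.50-fold and 4.41-fold, and Akt2, besides the peak printed above, had 4.08-fold and 3.63-fold at a second start. The others with 3 peaks were 4921504E06Rik, Cic, Lrrc8c, Maz, Mtus2, Rara and Sh3bgr. Another TBX5 summit of any class lay within 10 kb of 558 peaks (35.7%), against 35.6% of TBX3-shared promoter peaks and 32.9% of all peaks.

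Lists of genes that most cells use had peaks without a TBX3 region at 5.0% (nuclear pore) to 16.5% (splicing) of their genes, against 5.18% of all protein-coding genes. Only promoters with an active mark can hold such a peak, while the 5.18% covers all genes, marked or not. The part of this rule in the shares was not tested. For TBX3-shared peaks the share of all genes was 4.77%. Splicing factor genes had 14 of 85 (16.5%, 9.31 to 26.1) and 5 with a TBX3-shared peak. Translation factor genes had 10 of 70 (14.3%, 7.07 to 24.7) and 2 with a TBX3-shared peak, mitochondrial ribosomal protein genes 10 of 78 (12.8%, 6.32 to 22.3) and 5, and cytosolic ribosomal protein genes 9 of 84 (10.7%, 5.02 to 19.4) and 3. Respiratory chain and ATP synthase genes had 10 of 86 (11.6%, 5.72 to 20.3) and 4, RNA polymerase II and Mediator genes 5 of 41 (12.2%, 4.08 to 26.2) and 1, and proteasome genes 4 of 48 (8.33%, 2.32 to 19.98) and 1. The intervals of the cytosolic ribosomal, Mediator and proteasome lists hold the share of all genes. In these 7 groups the count was higher for peaks without a TBX3 region, though the intervals of both shares overlap in each. It was higher for TBX3-shared peaks at nuclear pore, vesicle sorting and Rab, and chaperone genes, whose counts follow below. In the 7 groups the medians of the highest fold of each gene ran from 3.69 for translation factors to 4.49 for cytosolic ribosomal proteins, around the 4.36 of all 1120 genes. Single genes stood above that level. Rpl41 had 12.9-fold enrichment (9.78 to 16.7) from 55 fragments, Mrpl54 8.96-fold (6.10 to 12.7), Hnrnpll, a splicing regulator, 7.76-fold (5.13 to 11.3), Med6, a Mediator subunit, 6.62-fold (4.51 to 9.41), and Cox6a1, of cytochrome oxidase, 5.38-fold (3.71 to 7.57). Hnrnpll also had a TBX3-shared peak. Eef1a1, the elongation factor with the highest fold of its list, had 4.36-fold enrichment (2.95 to 6.23).

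Vesicle sorting and Rab genes had 6 of 93 (6.45%, 2.40 to 13.5), near the 5.18% of all genes, and 14 of 93 (15.1%, 8.48 to 24.0) with a TBX3-shared peak, against 4.77% of all genes. Their strongest was Vps51, of a tethering complex for retrograde traffic, with 12.2-fold enrichment (9.32 to 15.7). Chromatin regulators had 10 of 54 (18.5%), led by Smarca2 (5.21-fold), Pbrm1 (5.20-fold), Kmt2a (4.98-fold) and Kmt2c (4.69-fold), and 15 with a TBX3-shared peak. Arid2, Smarca2 and Kmt2c had both kinds of peak. BMP and TGF-beta signalling genes had 6 of 34 (17.6%) and 9, led by Acvr1, a type I receptor, with 7.58-fold enrichment (5.12 to 10.8). Wnt, Notch and hedgehog genes had 7 of 41 (17.1%) and 6, led by Dvl3 (5.04-fold) and Hes1 (4.96-fold). Glycolysis, glycogen and TCA cycle genes had 8 of 42 (19.0%) and 8, led by Pgam2, the muscle phosphoglycerate mutase (5.30-fold, 3.44 to 7.84). Both kinds of peak also stood at Acvr2a, Bmpr2 and Smad7 of the BMP and TGF-beta list. The same held for Maml3, Rbpj and Wls of the Wnt, Notch and hedgehog list, and for Ogdh and Pdhb of the glycolysis list.

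Of 33 genes of fatty acid oxidation and its regulators 1 had such a peak (Esrrg, an estrogen-related receptor, 6.44-fold, 3.78 to 10.4) and 4 a TBX3-shared one. Cell cycle and replication genes had 4 of 44 (9.09%) and 5 with a TBX3-shared peak, led by Cdc25b, a phosphatase that activates cyclin-dependent kinases, with 13.0-fold enrichment (10.1 to 16.4). Chaperone genes had 4 of 35 and 5, zinc finger genes named Zfp 28 of 397 (7.05%) and 20, aminoacyl-tRNA synthetases 2 of 32 and 1, and nuclear pore genes 1 of 20 and 3. No peak without a TBX3 region stood at any of 23 endothelial genes (upper limit of the interval 14.8%), 19 blood genes (17.6%), 23 neuronal genes (14.8%) or 1459 olfactory and vomeronasal receptor genes (0.253%). Of the first group 1 gene, Klf4, had a TBX3-shared one. The intervals of the endothelial, blood and neuronal lists hold 5.18%, the share of all protein-coding genes, and that of the receptor genes lies below it. A gene whose promoter carries no active mark could hold no such peak by definition. These counts therefore do not describe TBX5 binding at unmarked promoters. A gene counted as without a peak had no kept peak matched to its start within 100 bp, and may still have one among the 276 peaks without a matched start or below the authors' threshold.

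**Figure D5:**
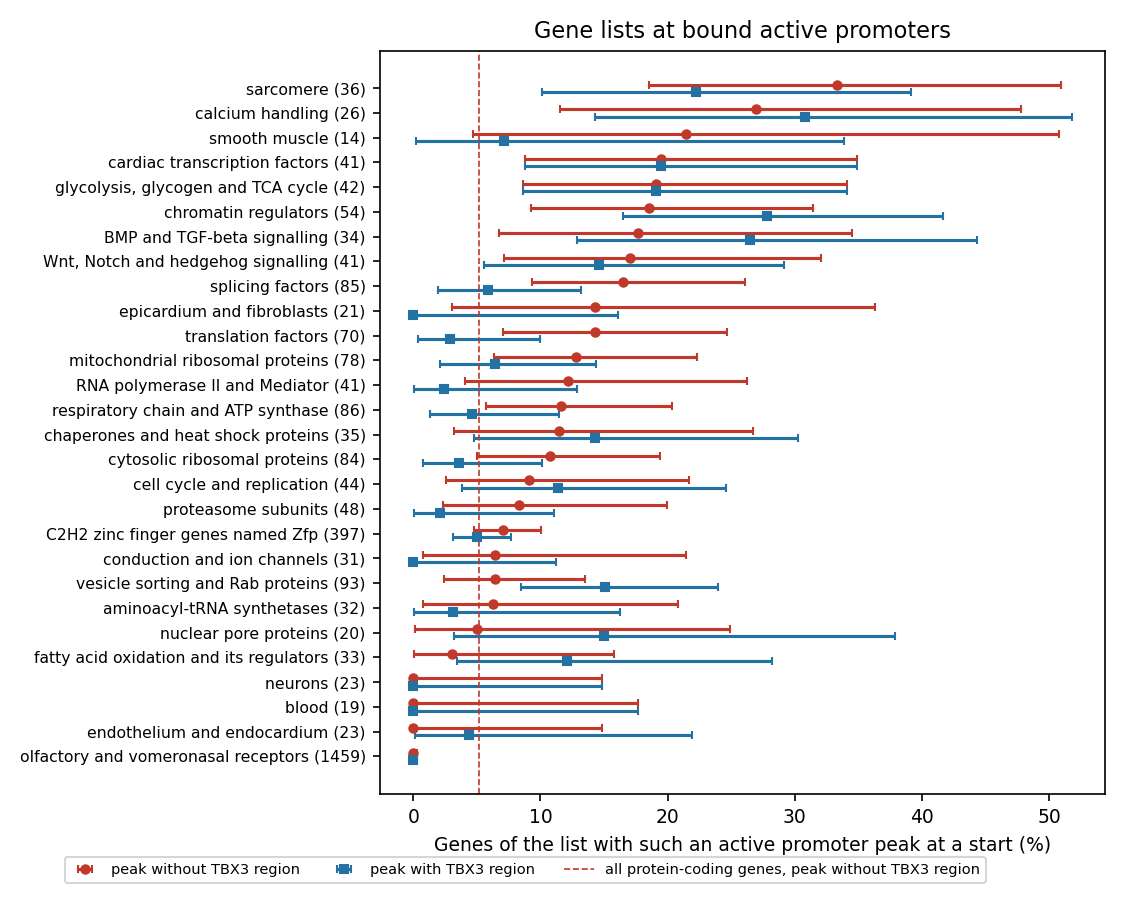
Share (%) of the genes of each list with a promoter peak without a TBX3 region (circles) and with a TBX3-shared one (squares) at a start. The number of genes is beside the name, bars are exact 95% intervals, and the dashed line is the share of all protein-coding genes with a peak without a TBX3 region, 5.18%. Sarcomere genes are highest for peaks without a TBX3 region at 33.3%.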

How the data were processed

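The submitters' processing notes name Bowtie2, SAMtools, MACS2, ChIPseeker and the build mm10, with versions and settings not given in the sources used here. Peak names show that the authors called peaks on their TBX5 samples pooled. The deposited fold is the authors' ratio of pileup + 1 to background + 1, −log10 p and −log10 q are the authors' values, and the deposited score was used for nothing. Chromatin class, TBX3 overlap, histone mark overlap (either region file of a pair) and the distance to a start are the authors'; the tissue of the mark and TBX3 regions, the overlap rules and the read depth per sample were not given in the sources used here.

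Pileup and background were solved from the fold and −log10 p as a Poisson tail (12436 of 12436 peaks, largest misfit 0.000242), and the solution was tested on simulated data. Intervals of shares are exact Clopper-Pearson, and intervals of medians come from order statistics. They cover counting error and treat peaks as independent. Starts are those of the RefSeq promoter table (GRCm38.p6). For 228 peaks, among them all 31 matched on chromosome 18, which the table used here leaves out, the end of a gene body served as start. Body ends were used beyond chromosome 18 only after strong peaks had been seen without a gene. Gene body ends have no strand for genes absent from the table, so either end could match.

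The genes named are the 15 highest and 3 lowest folds with a gene, up to 4 per list, 1 peak on each side of the class limit and up to 4 and 3 promoters with and without the core. In the heart lists all bound genes are given, and the genes with at least 3 peaks and a few more were chosen after their values were seen. Peaks and lists were chosen with earlier results of these data known. Of the list entries 1 matched no gene, and the core histone list matched 2 genes and was not used. Figures were drawn with matplotlib 3.10.9 and values computed with scipy 1.17.1, pandas 2.3.3, numpy 2.4.6 and Python 3.11.15.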

Additional observations from a re-analysis of the deposited data

How the results depend on the processing

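With −log10 q of at least 5, the median fold was 5.13 at promoter peaks without a TBX3 region and 4.84 at TBX3-shared ones, the median width 254 bp and the number of protein-coding genes 706. With −log10 q of at least 10 these were 7.06, 6.48, 314 bp and 229, the median distance to the start 265 bp, the H3K9ac share 87.8% and the share of windows with AGGTGT 18.3%. These thresholds leave fewer and stronger peaks by construction. With summits within 500 bp alone, the median fold was 4.21 for both kinds of promoter peak, the H3K9ac share 97.4% and the share with −log10 q of at least 10 19.8%. With peaks marked by both files for H3K4me3 and H3K27ac, the median fold was 4.27, the median distance 156.5 bp, the H3K9ac share 99.5% and the share with −log10 q of at least 10 20.1%. The core share was 4.68% for GGTGTGA, 1.49% for AGGTGTGA and 16.6% in windows with the summit. In all, 22 of 33 alternatives moved a value beyond its 95% interval or a gene count by over 1.5 times, and 11 did not. One alternative was added after seeing the data: without gene body ends beyond chromosome 18, 1091 peaks matched 961 genes, against 1288 and 1120. No paired analysis was possible because peaks were called on pooled samples, and for the same reason no replicate could be left out. Pileups near 22 fragments limit the precision of single folds.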

Other observations

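Chromosome X held 43 of the 1564 promoter peaks without a TBX3 region (2.75%, 1.997 to 3.69) and 6 of the 1341 TBX3-shared ones (0.447%, 0.164 to 0.971). Promoter peaks without a TBX3 region made up 28.3% of the 152 TBX5 peaks on this chromosome, against 8.28% to 17.2% on the autosomes. Among them were Sh3kbp1 (32.9-fold) and Med12, a Mediator subunit gene (3.92-fold, 2.26 to 6.40).

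Of 276 peaks without a RefSeq start within 100 bp of the implied one, 132 had one within 1000 bp. The strongest of all 1564 peaks was among the other 144. It lay at chr15:98607268-98607892, inside the body of Adcy6, an adenylyl cyclase gene, 1 bp from its assigned start, with 50.4-fold enrichment (43.6 to 57.9) from 195 fragments over a background of 2.89. Further such peaks lay inside Lsp1 (21.6-fold), Pde4dip (21.5-fold), Tmem131l (20.7-fold) and Brd7 (20.5-fold).

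Of 21 genes of the epicardium and fibroblasts 3 (14.3%, 3.05 to 36.3) had a promoter peak without a TBX3 region and 0 a TBX3-shared one. These were Krt19 (5.89-fold), Fbln1 (4.43-fold) and Tbx18 (3.31-fold). Of 14 smooth muscle genes 3 (21.4%, 4.66 to 50.8) had a peak without a TBX3 region, and 1, Des, had a TBX3-shared one. The 3 were Myocd (5.23-fold), Cald1 (4.92-fold) and Smtn (3.63-fold). Both intervals hold 5.18%, the share of all protein-coding genes. The peaks at Tbx18 and Myocd are also counted among the cardiac transcription factors, and that at Des among the sarcomere genes.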
